A study of Mus musculus with 6 samples.

Results

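Lypd8 and 8 secreted antimicrobial protein genes were followed in the distal colon of TNFR2-deficient mice. TNFR2 is one of the receptors of the cytokine tumor necrosis factor. The genes are Lypd8, Lyz1, Reg3b, Reg3g, Ang4, Retnlb, Itln1, Dmbt1 and Pla2g2a. They were found by symbol in the deposited expression table, where Lypd8 carries its older name 2210415F13Rik, and each filled 1 row, 9 of 24617 rows in all. Lypd8 was selected on its knockout and wildtype FPKM in these libraries, and the others were added by function with their values known. Genotype differences of members are therefore descriptions, with no p-value. Messenger RNA was sequenced from 3 TNFR2-/- and 3 wildtype males aged 8 weeks, all labelled strain C57Bl/6, with 1 library per mouse. The labels name no tissue-specific deletion and give neither the deleted exons nor whether the wildtype mice were littermates.

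The colon keeps a dense community of bacteria away from its epithelium with mucus and with proteins that epithelial cells release into it. Lypd8, a glycosylated protein of the Ly6/uPAR family carried on a lipid anchor, is shed by colon epithelial cells and binds flagellated bacteria. Lysozymes cut bacterial cell walls, and Reg3 lectins, angiogenin 4 and group IIA phospholipase A2 damage bacteria directly. Intelectin 1 and Dmbt1, a scavenger receptor cysteine-rich protein, bind microbial surfaces. Several of these proteins are best known from Paneth cells, a cell type of small intestinal crypts.

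Values are in FPKM, fragments per kilobase of transcript and per unit of mapped fragments, as deposited. Summed FPKM lay between 655274 and 709593 per library. Counts of fragments are not in the table, so the depth behind a value is unknown, and levels under 1 FPKM are the least precise. Tnfrsf1b, the gene of the missing receptor, measured 1.17, 1.12 and 0.924 FPKM in knockout libraries 1, 2 and 3, against 7.49, 8.20 and 8.17 FPKM in wildtype libraries. Genes of skin and skeletal muscle, tissues next to the distal colon, varied widely between libraries. The summed level of 26 rows of skin genes was 368, 1188 and 1971 FPKM in the knockout libraries, against 2237, 1092 and 2411 FPKM in the wildtype libraries. For 15 skeletal muscle genes the sums were 188, 2591 and 1920 FPKM in the knockout, against 11182, 3417 and 4048 FPKM in the wildtype libraries. Knockout library 1 was the lowest and wildtype libraries 1 and 3 were the highest in both. In bulk tissue, fewer cells of a type and less RNA per cell cannot be told apart.

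The 9 genes split into 3 that were plainly expressed and 6 with a mean under 1 FPKM. In knockout colon Dmbt1 came first with a mean of 418 FPKM and Lyz1 second at 28.0 FPKM, while Lypd8 was listed at 0. In wildtype colon Lypd8 stood first, followed by Dmbt1 with a mean of 346 FPKM and Lyz1 with a mean of 40.2 FPKM. Itln1 and Pla2g2a followed in both genotypes between 0.464 and 0.892 FPKM, with overlapping libraries, so their order is not resolved. Ang4 and Reg3g lay lower still and also overlapped one another. Retnlb was above 0 in 1 library and Reg3b in none.

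**Figure D1:**
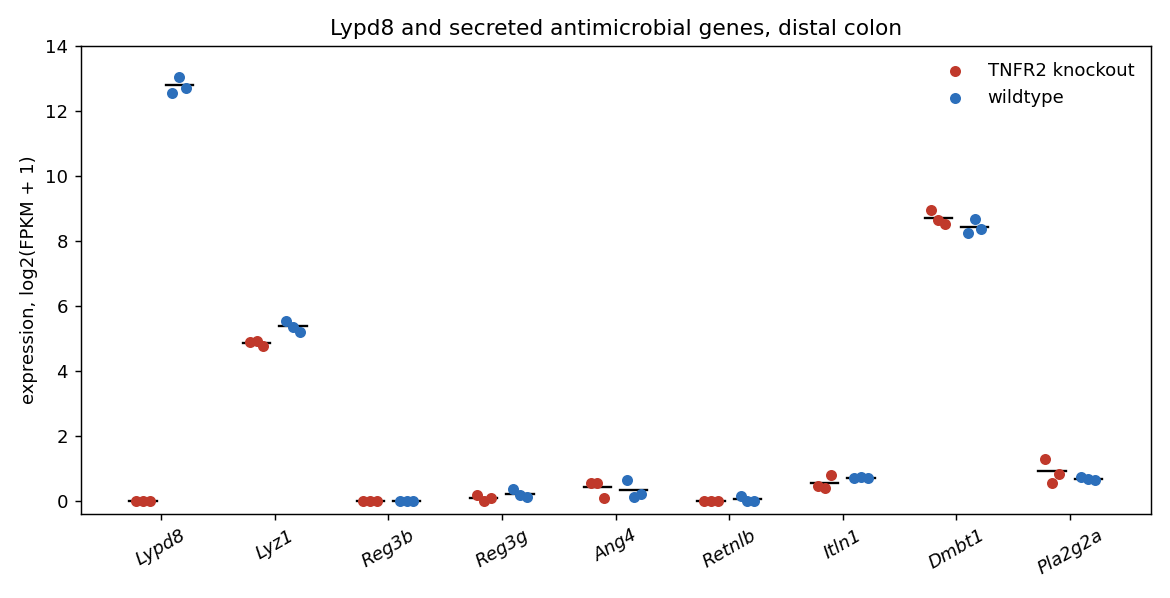
Expression of the 9 genes as log2(FPKM + 1), with 3 TNFR2 knockout libraries (red, left of each pair) and 3 wildtype libraries (blue, right) as points and black lines at log2(group mean FPKM + 1). Lypd8 lies near 13 in wildtype and at 0 in knockout libraries, Dmbt1 and Lyz1 differ far less, and the other 6 genes stay near the bottom in both genotypes.

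Lypd8 (2210415F13Rik, chromosome 11, 58377546 to 58392840, mm10) is listed at 0, 0 and 0 FPKM in the knockout libraries, against 6008, 8488 and 6669.6 FPKM in the wildtype libraries, a wildtype mean of 7055 ± 1284 FPKM (SD, n = 3). The groups do not overlap, and no fold change is given against a group listed at 0. In each wildtype library it was the most abundant of 23108 named rows. Its level there was 1.69, 2.24 and 1.84 times that of the next, the translation elongation factor gene Eef1a1, and it held 1.05%, 1.46% and 1.17% of the FPKM of all named rows. Eef1a1 itself measured 3737, 3436 and 3708 FPKM in the knockout libraries, where it came first, against 3547, 3782 and 3615 FPKM in the wildtype libraries.

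In the authors' deposited table Lypd8 has group values of 0 FPKM in the knockout and 6990 FPKM in the wildtype, yet its log2 fold change is entered as 0 and its p-value as 1. That pair of entries marks 3777 rows of the authors' deposited table. Of these, 3478 have both group values at 0, and 285 have a group value of at least 1 FPKM. Both groups are above 0 in 283 of those 285 rows, but not in Lypd8. The table therefore holds no usable test by the authors for Lypd8, and whether its 0 is a measured absence or an estimate that was not made cannot be told apart from these values.

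A listed 0 at such a level was rare. Of 94 named rows with a wildtype mean of at least 1000 FPKM, Lypd8 was the only row with a 0 in any library. The next lowest knockout mean among those 94 was that of Acta1, the skeletal muscle actin, at 25.9% of wildtype. Of 889 named rows with a wildtype mean of at least 100 FPKM, 8 had a 0 in some library, and the other 7 were small RNA genes. Rows listed at 0 in all 3 libraries of a genotype, with at least 10 FPKM in each library of the other, numbered 3 in the whole table. Besides Lypd8 these were Mir3058, at 0 in the knockout against 16.5, 16.1 and 22.4 FPKM in the wildtype libraries, and Snord91a, at 451, 262 and 208 FPKM in the knockout libraries against 0 in the wildtype. Lypd8 was the only protein-coding gene among them.

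**Figure D2:**
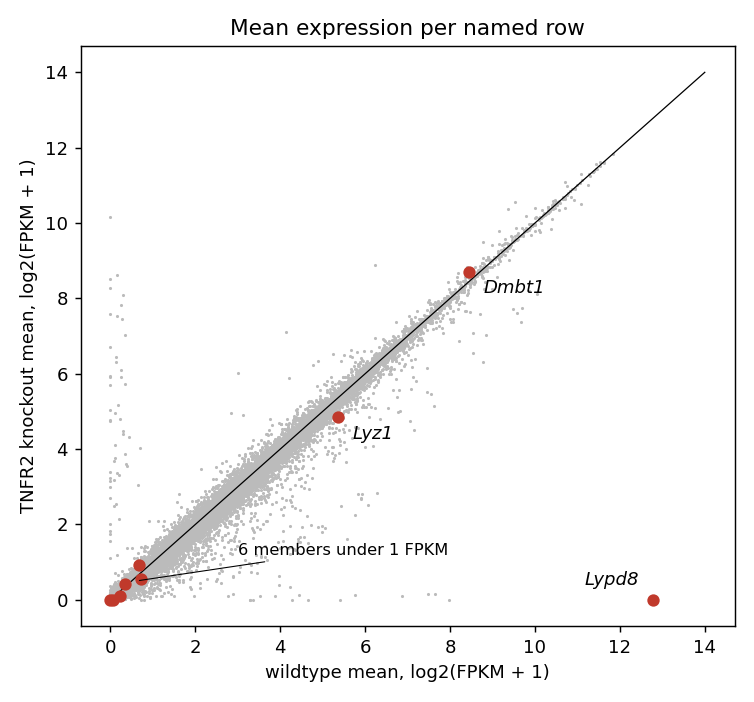
Group means of all named rows as log2(FPKM + 1), wildtype on the horizontal and TNFR2 knockout on the vertical axis, with the line of equal means and the 9 genes in red. Most named rows lie along the line up to the highest levels, whereas Lypd8 lies on the lower edge at the far right.

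Among the neighbours of Lypd8 within 100 kb, no row was at 0 in the knockout libraries alone. Within 100 kb the table holds 11 other rows, 8 of them named, and none overlaps the Lypd8 row. The nearest downstream named row, 1810065E05Rik, begins 28.3 kb away. It reached 26.1, 19.8 and 25.4 FPKM in the knockout libraries, against 17.6, 26.1 and 18.8 FPKM in the wildtype libraries, with overlap. Upstream, Sh3bp5l averaged 15.6 ± 1.18 FPKM in the knockout and 16.1 ± 0.421 FPKM in the wildtype (SD, n = 3 each). Lypd9 (4930504O13Rik in the table), a family relative 53.3 kb away, was at 0 in all 6 libraries. Of the 4 tested neighbours, 0 passed limma at a Benjamini-Hochberg adjusted p under 0.05, where 0.288% of all tested genes passed, 0.185% higher and 0.103% lower in the knockout. An unnamed row 7.01 kb downstream stood at 0.459, 0.356 and 0.494 FPKM in the knockout libraries, against 0.467, 1.22 and 0.528 FPKM in the wildtype libraries.

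**Figure D3:**
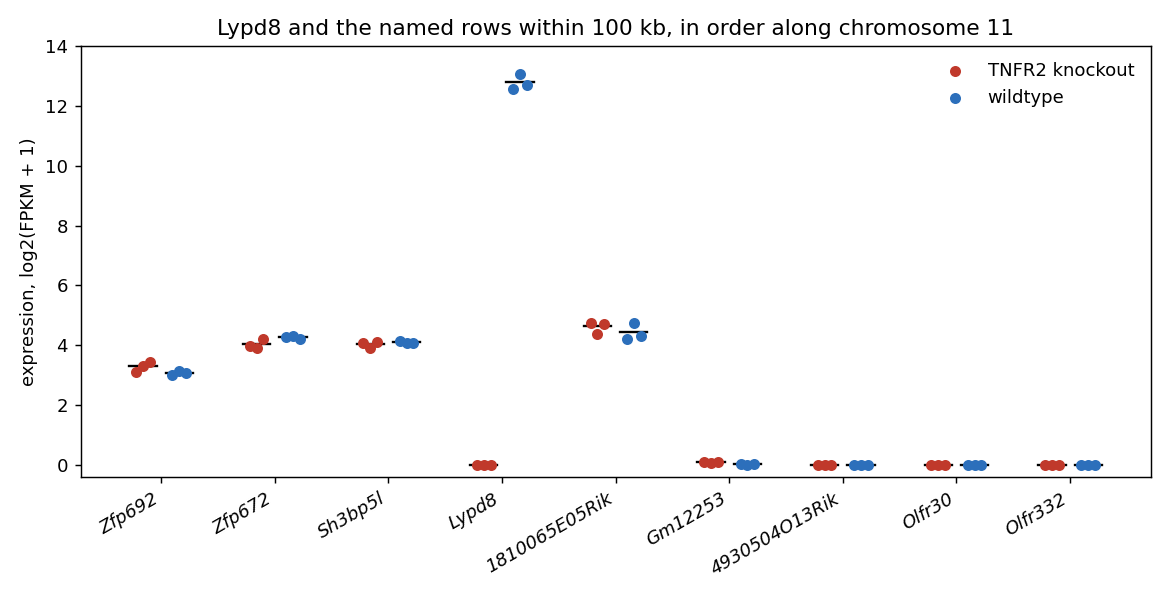
Lypd8 and the 8 named rows within 100 kb, in order along chromosome 11, as log2(FPKM + 1), with TNFR2 knockout libraries in red (left) and wildtype libraries in blue (right) and black lines at log2(group mean FPKM + 1). Lypd8 departs between the genotypes by the whole height of the plot, while Zfp692, Zfp672, Sh3bp5l and 1810065E05Rik stay at similar levels in both.

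Annotated transcripts of other genes share no stretch of read length with Lypd8. Of 1281 different windows of 50 bases, the stated read length, in its 2 coding GENCODE M21 transcripts, 0 occur in a transcript of another gene. The same held for 877 windows of 1810065E05Rik. Levels of epithelial genes are given beside it. The 22 rows of surface colonocyte genes summed to 7481, 5507 and 7602 FPKM in the knockout, against 4746, 6619 and 5265 FPKM in the wildtype libraries. Goblet cell genes (17 rows) summed to 9185, 5893 and 7098 FPKM in the knockout, against 6047, 7327 and 5791 FPKM in the wildtype libraries. Both epithelial sums overlapped between the genotypes, as did the skin sum, whereas the muscle sum did not. Their part in the Lypd8 values was not tested.

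RefSeq gives a pair of starts for Lypd8, and the upstream one is shown beside the start of 1810065E05Rik, its nearest downstream neighbour in the table, which is transcribed in the same direction but kept a similar level in both genotypes. Sequences are from RefSeq on GRCm38.p6, the assembly also called mm10, plus strand, and run from 250 bases before to 50 bases after the annotated start. They lie at chr11:58378782-58379081 and chr11:58420861-58421160. Capitals mark matches of the pattern TATANA, which stands for the TATA box.
Lypd8: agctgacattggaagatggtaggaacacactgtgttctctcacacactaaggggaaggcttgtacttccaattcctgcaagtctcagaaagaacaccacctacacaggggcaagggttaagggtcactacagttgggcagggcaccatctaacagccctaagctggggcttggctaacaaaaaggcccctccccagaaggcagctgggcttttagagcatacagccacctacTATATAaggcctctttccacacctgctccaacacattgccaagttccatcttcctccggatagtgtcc
1810065E05Rik: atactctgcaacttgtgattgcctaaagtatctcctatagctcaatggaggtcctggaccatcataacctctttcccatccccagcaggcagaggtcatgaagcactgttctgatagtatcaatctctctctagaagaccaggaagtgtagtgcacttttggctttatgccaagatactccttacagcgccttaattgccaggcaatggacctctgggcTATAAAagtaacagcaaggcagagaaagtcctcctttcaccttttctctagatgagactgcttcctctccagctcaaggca
The match begins 18 bases before this start of Lypd8 and 31 bases before that of 1810065E05Rik. The window of the downstream Lypd8 start, at chr11:58380396-58380695, holds no match, and the Lypd8 row of the table begins upstream of both annotated starts. Searched on both strands, TATANA occurs in 24.7% of 32851 RefSeq windows of this length. A CDX2 core (TTTATTG, in 4.6% of windows), a STAT pattern (TTCNNNGAA, in 8.3%) and an NF-kB pattern (in 4.79%) had no match in these windows, which says only that these letters are not there.

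Lyz1 had a lower mean in the knockout colon. This lysozyme gene (chromosome 10, 117287795 to 117292868) measured 28.7, 29.0 and 26.3 FPKM in the knockout libraries, against 44.9, 39.8 and 36.0 FPKM in the wildtype libraries. All knockout libraries lay below all wildtype libraries, as in 12.5% of all tested genes. Lyz1 did not pass limma with Benjamini-Hochberg adjustment. Its mean was 28.0 ± 1.46 FPKM in the knockout and 40.2 ± 4.49 FPKM in the wildtype (SD, n = 3 each), or 69.5% of wildtype, a log2(FPKM + 1) difference of -0.51 ± 0.09 (SE). The mean log2(FPKM + 1) difference kept its sign when any library was left out, between -0.58 and -0.42. Without the libraries that stood apart in skin and muscle genes (knockout 1, wildtype 1 and 3) it was -0.51, with a lone wildtype library left.

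Lyz2, the lysozyme of macrophages and other myeloid cells, lies 5.52 kb from Lyz1 and showed the same order of groups. It measured 169, 163 and 110 FPKM in the knockout libraries, against 246, 213 and 207 FPKM in the wildtype libraries. The level of Lyz1 was 16.9%, 17.7% and 23.8% of that of Lyz2 in the knockout libraries, against 18.3%, 18.7% and 17.4% in the wildtype libraries. The ratio of the lysozyme genes overlapped between the genotypes, whereas neither level did. The pair is uncertain, because 16.1% of the 50-base windows of the Lyz1 transcript, 195 of 1214, also occur in Lyz2, and the sources used here do not give how shared fragments were assigned. Annotated RefSeq starts of Lyz1 and Lyz2 (GRCm38.p6, minus strand, chr10:117292819-117293118 and chr10:117282223-117282522) are printed 5′ to 3′ to show how alike the copies are, with capitals for the longest run of identical bases.
Lyz1: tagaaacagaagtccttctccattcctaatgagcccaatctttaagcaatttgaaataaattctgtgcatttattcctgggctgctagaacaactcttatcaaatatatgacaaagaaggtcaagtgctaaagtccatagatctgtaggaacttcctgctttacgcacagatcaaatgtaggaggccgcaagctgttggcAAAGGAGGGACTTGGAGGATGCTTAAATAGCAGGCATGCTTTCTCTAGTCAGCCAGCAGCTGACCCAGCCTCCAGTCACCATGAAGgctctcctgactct
Lyz2: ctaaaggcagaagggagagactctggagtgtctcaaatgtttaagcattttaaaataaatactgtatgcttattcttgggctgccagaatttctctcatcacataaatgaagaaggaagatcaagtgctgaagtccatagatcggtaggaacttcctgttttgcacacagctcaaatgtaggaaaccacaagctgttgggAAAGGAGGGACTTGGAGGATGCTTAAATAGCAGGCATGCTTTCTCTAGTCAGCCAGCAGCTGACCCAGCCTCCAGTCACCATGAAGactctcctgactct
The capital run of 86 bases begins 50 bases before each start and ends at base 36 after it. Aligned end to end, the windows were 81.9% identical over 310 columns, 20 of them gaps. None of the patterns searched for at Lypd8 matched in either window.

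Markers of myeloid cells were compared beside Lyz1. Of 17 tested neutrophil and macrophage rows, 16 had a lower and 1 a higher mean log2(FPKM + 1) in the knockout, with a median log2 difference of -0.37, against -0.03 over all 14564 tested genes. Their summed level without Lyz2, over 20 rows, was 254, 284 and 196.5 FPKM in the knockout libraries, against 330, 290 and 338 FPKM in the wildtype libraries. Within the knockout the order was that of Lyz1, with library 2 highest and library 3 lowest in both. Within the wildtype the order differed from that of Lyz1, since library 3 had the highest sum and the lowest Lyz1 level. C1qa, a complement subunit made by macrophages, measured 64.3, 70.6 and 48.2 FPKM in the knockout, against 84.4, 72.7 and 86.2 FPKM in the wildtype libraries. Of the neutrophil markers, Elane was at 0 in all 6 libraries, and Mpo and Mmp8 stayed under 0.1 FPKM. S100a8, a calprotectin subunit abundant in neutrophils, measured 0.913, 10.04 and 5.43 FPKM in the knockout, against 4.54, 2.42 and 7.85 FPKM in the wildtype libraries. S100a9, the other subunit, measured 1.08, 8.21 and 5.46 FPKM in the knockout, against 3.55, 3.14 and 5.94 FPKM in the wildtype libraries. Both overlapped between the genotypes, with a higher mean FPKM but a lower mean log2(FPKM + 1) in the knockout. Cxcr2, a chemokine receptor of neutrophils and the 1 row with a higher mean log2, averaged 0.865 ± 0.140 FPKM in the knockout and 0.673 ± 0.0659 FPKM in the wildtype (SD, n = 3 each). Of these 17 rows 0 passed limma with Benjamini-Hochberg adjustment, and 10 had an unadjusted p under 0.05. Among all tested genes 16.2% had such a p, and 57.4% had a lower mean log2(FPKM + 1) in the knockout. The part of myeloid cells in the Lyz1 values was not tested.

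**Figure D4:**
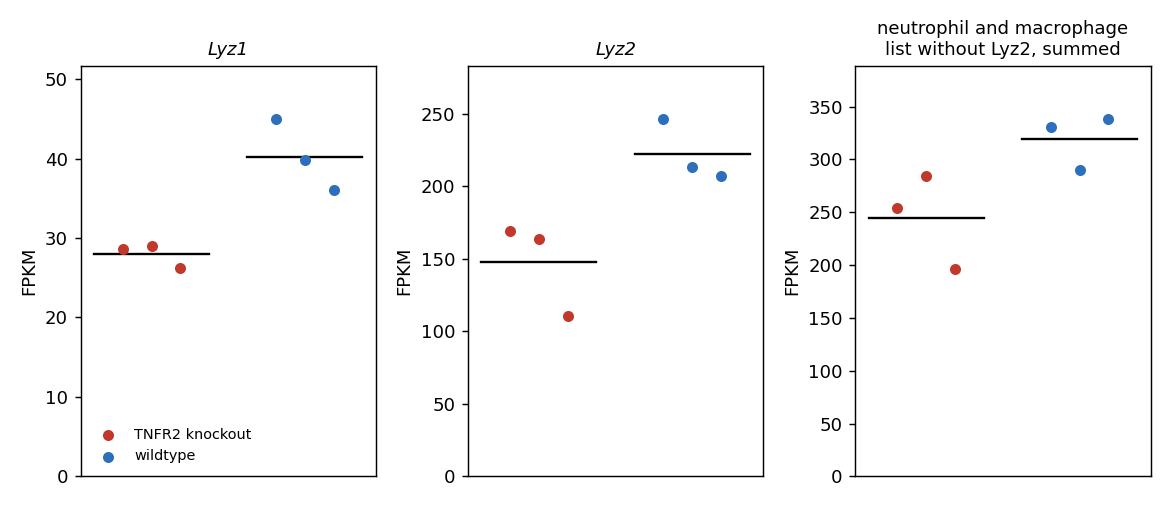
FPKM of Lyz1 and Lyz2 and the summed FPKM of the other 20 neutrophil and macrophage rows, each axis from 0, with TNFR2 knockout libraries in red (left), wildtype libraries in blue (right) and black lines at the means. In all 3 panels every knockout library lies below every wildtype library, with the closest approach in the summed list (284 against 290 FPKM).

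Beside Lyz1, defining Paneth cell genes were at or near 0. All 12 alpha-defensin rows were at 0 in all 6 libraries, and Mmp7, the protease that activates them, stayed under 0.2 FPKM. The list of Paneth and deep secretory cell genes nevertheless had 9 tested rows, led by Mptx1 (1810030J14Rik in the table), a mucosal pentraxin, and Spink4, a secreted protease inhibitor of goblet-like cells. Mptx1 measured 1268, 748 and 762 FPKM in the knockout libraries, against 706, 880.3 and 670.2 FPKM in the wildtype libraries. Spink4 measured 918, 636 and 816 FPKM in the knockout, against 653, 790 and 664 FPKM in the wildtype libraries. Both overlapped between the genotypes. Of the 9 rows 0 passed limma with Benjamini-Hochberg adjustment and 0 had an unadjusted p under 0.05, with 7 higher and 2 lower and a median log2 difference of 0.13.

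Among the lectins, Reg3b (chromosome 6, 78370885 to 78373466) was at 0 in all 6 libraries. Reg3g (chromosome 6, 78466268 to 78468874), which kills Gram-positive bacteria, measured 0.134, 0 and 0.0618 FPKM in the knockout libraries, against 0.272, 0.133 and 0.0925 FPKM in the wildtype libraries. The groups overlapped, and the mean was under the minimum for testing. Reg1, Reg2, Reg3a and Reg3d, which lie between them, were at 0 throughout. Reg4, a relative that marks deep secretory cells of the colon, stood at 249, 165 and 208 FPKM in the knockout, against 177, 206 and 180.3 FPKM in the wildtype libraries. Itln1 (chromosome 1, 171518124 to 171535294) measured 0.368, 0.309 and 0.716 FPKM in the knockout libraries, against 0.623, 0.669 and 0.620 FPKM in the wildtype libraries. Knockout libraries 1 and 2 lay below all wildtype libraries and knockout library 3 above them. Its log2(FPKM + 1) difference was -0.17 ± 0.12 (SE).

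Dmbt1 (chromosome 7, 131031991 to 131121630) was the most abundant member in the knockout colon. It measured 492, 396 and 364 FPKM in the knockout libraries, against 301, 407 and 329 FPKM in the wildtype libraries. Wildtype library 2 lay above knockout libraries 2 and 3, so the groups overlapped. The mean was 418 ± 66.4 FPKM in the knockout and 346 ± 54.8 FPKM in the wildtype (SD, n = 3 each), a log2(FPKM + 1) difference of 0.27 ± 0.15 (SE). Without the libraries that stood apart in skin and muscle genes (knockout 1, wildtype 1 and 3) the difference was -0.10, with a lone wildtype library left. With the skin genes as a covariate and all libraries it was 0.07 ± 0.11. The highest Dmbt1 value fell in knockout library 1, which also had the highest goblet cell sum (9185 FPKM) and the lowest skin sum (368 FPKM). Knockout libraries 2 and 3 differed in order, with goblet cell sums of 5893 and 7098 FPKM but Dmbt1 at 396 and 364 FPKM. So did wildtype libraries 1 and 3, with sums of 6047 and 5791 FPKM but Dmbt1 at 301 and 329 FPKM. The parts of the goblet cell level and of skin in the Dmbt1 values were not tested.

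**Figure D5:**
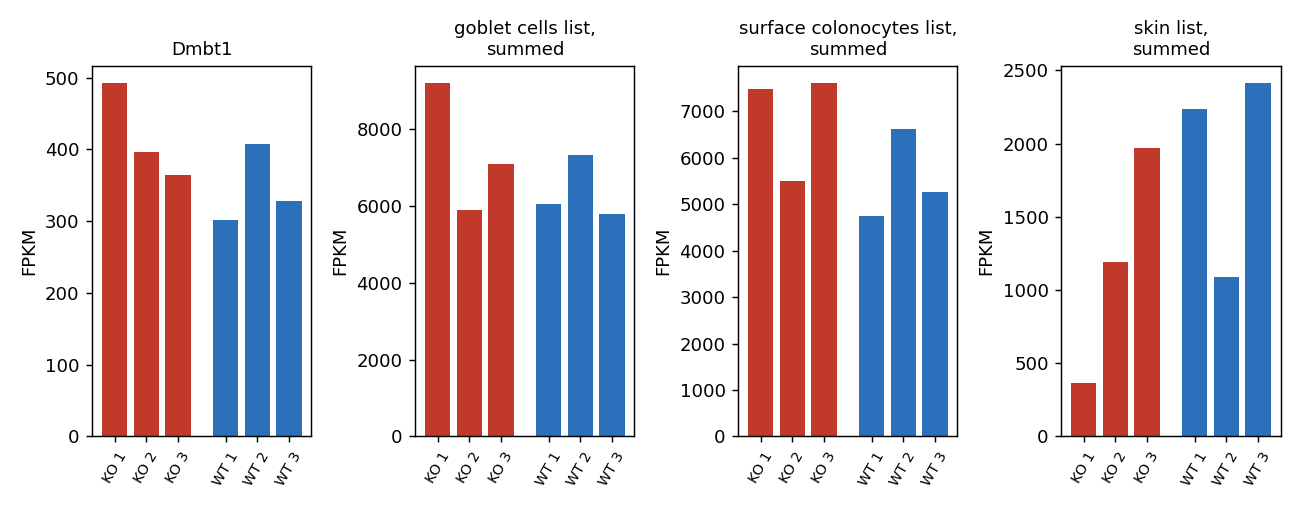
FPKM of Dmbt1 and summed FPKM of the goblet cell, surface colonocyte and skin lists in each library, with TNFR2 knockout libraries (KO, red) left of wildtype libraries (WT, blue) and axes from 0. Dmbt1 is highest in KO 1 and, within the wildtype, in WT 2, the libraries of each genotype with the lowest skin sums (368 and 1092 FPKM). WT 1 and WT 3 do not follow this order, with Dmbt1 at 301 and 329 FPKM and skin sums of 2237 and 2411 FPKM.

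The enzymes and the resistin-like protein were near the bottom of the scale. Pla2g2a, the group IIA phospholipase, measured 1.44, 0.467 and 0.771 FPKM in the knockout libraries, against 0.646, 0.598 and 0.554 FPKM in the wildtype libraries. Its libraries overlapped, with a log2(FPKM + 1) difference of 0.21 ± 0.18 (SE), and without knockout library 1 this was 0.01 ± 0.12. The gene is known to be disrupted in C57BL/6 mice, although GENCODE M21 gives it 1 coding transcript. In the table it shares the position chromosome 4, 138799247 to 138863469, with Pla2g5, a phospholipase on the opposite strand. Pla2g5 measured 15.5, 10.2 and 12.6 FPKM in the knockout, against 7.92, 11.6 and 8.61 FPKM in the wildtype libraries. As the sources used here give no strandedness, reads of these overlapping genes cannot be told apart with certainty.

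Ang4 (chromosome 14, 51763892 to 51773590), a ribonuclease of the angiogenin family, measured 0.467, 0.452 and 0.0717 FPKM in the knockout libraries, against 0.553, 0.0773 and 0.161 FPKM in the wildtype libraries. The groups overlapped across nearly their whole range, and 4.7% of its 50-base windows recur in Ang2 or Ang5. Retnlb (chromosome 16, 48816856 to 48818892), a goblet cell product induced by type 2 cytokines, was at 0 in the knockout libraries, against 0.112, 0 and 0 FPKM in the wildtype libraries. Retnla, the related gene 23.7 kb away, known from macrophages and adipose tissue, measured 21.4, 44.6 and 40.4 FPKM in the knockout, against 81.5, 32.0 and 49.0 FPKM in the wildtype libraries, with overlap.

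Of the 9 genes, 5 reached a mean of 0.5 FPKM and entered the fit across the table, and 4 (Reg3b, Reg3g, Ang4 and Retnlb) did not. Limma with Benjamini-Hochberg adjustment passed 1 of the 5, Lypd8, where 0.288% of all 14564 tested genes passed, or 0.103% in the lower direction. Knockout and wildtype libraries did not overlap in 2 of the 5, Lypd8 and Lyz1, against 21.8% of all tested genes. Every knockout library was below every wildtype library in 12.5% of them and above in 9.30%. Lypd8 was selected on this contrast, and its listed 0 may be an estimate that was not made, so nothing is read from these counts. None of the 9 genes was called in the authors' deposited table.

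No called difference was found among other host defence genes. Their list held 37 rows, 8 of them at 0 in all 6 libraries and 21 tested. Of the 21, 0 passed limma with Benjamini-Hochberg adjustment, and 9 were higher and 12 lower, with a median log2 difference of -0.04. An unadjusted limma p under 0.05 was found for 6, against 16.2% of all tested genes. Every knockout library lay below every wildtype library in 5 of the 21 and above in 1, against 12.5% and 9.30% of all tested genes. The 1 above was Pigr, at 812, 596 and 658 FPKM in the knockout, against 446, 584 and 498 FPKM in the wildtype libraries. Lgals4, a galectin whose row also names Lgals6, measured 3155, 2699 and 3222 FPKM in the knockout, against 2343, 3352 and 2674 FPKM in the wildtype libraries. Zg16, a goblet cell lectin that binds Gram-positive bacteria, measured 3348, 1961 and 2307 FPKM in the knockout, against 2130, 2501 and 1854 FPKM in the wildtype libraries. Both overlapped. Pglyrp1, a peptidoglycan recognition protein, and Wfdc2, a protease inhibitor, named after their values were seen, averaged 322 and 519 FPKM in the knockout, against 303 and 480 FPKM in the wildtype.

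In some defence genes, picked once their values were seen, the libraries with the lowest skin sums were also the lowest of their genotype. Ltf, lactoferrin, named after its values were seen, measured 0.226, 3.30 and 2.14 FPKM in the knockout libraries, against 5.55, 3.98 and 8.03 FPKM in the wildtype libraries. Defb1, an epithelial beta-defensin, measured 0.215, 3.18 and 3.54 FPKM in the knockout, against 6.82, 2.96 and 6.63 FPKM in the wildtype libraries. In both, knockout library 1 was lowest and wildtype library 2 was the lowest wildtype library, as in the skin sum. The same held for Slpi, Lcn2, S100a8 and S100a9 of this list, whereas Pigr and Zg16 were highest of their genotype in those libraries. The share of all tested genes with this order was not counted, and the part of skin in these values was not tested.

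In the wider Ly6/uPAR family no called difference was found. Of 27 tested rows 0 passed limma with Benjamini-Hochberg adjustment and 6 had an unadjusted p under 0.05, with 7 higher, 20 lower and a median log2 difference of -0.33. Ly6a, an interferon-inducible surface protein, measured 307, 217 and 240.2 FPKM in the knockout, against 221, 273 and 233 FPKM in the wildtype libraries. Ly6e, another widely expressed member, measured 151, 117 and 112 FPKM in the knockout, against 133, 132 and 137 FPKM in the wildtype libraries. Ly6d and Lypd3 stand in the skin list too, so this list is not independent of the skin sums.

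Genes that sense microbes or drive antimicrobial expression were also compared. Of 28 tested rows of the IL-22, IL-13 and microbial sensing list 0 passed limma with Benjamini-Hochberg adjustment and 4 had an unadjusted p under 0.05, with 12 higher and 16 lower and a median log2 difference of -0.02. Il22 and Il17a, cytokines that induce Reg3 genes, were at 0 in all 6 libraries. Il22ra1, the epithelial receptor chain for IL-22, measured 18.0, 16.2 and 17.9 FPKM in the knockout, against 13.3, 17.4 and 13.9 FPKM in the wildtype libraries. Il18, an epithelial cytokine, measured 162, 117 and 157 FPKM in the knockout, against 111, 140.1 and 109 FPKM in the wildtype libraries, and Casp1, which cleaves it, averaged 64.5 ± 4.68 FPKM in the knockout and 54.4 ± 9.31 FPKM in the wildtype (SD, n = 3 each). Over all 187 tested rows of the lists 0 passed, and 37 had an unadjusted p under 0.05, 13 higher and 24 lower, or 19.8% against 16.2% of all tested genes.

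Regional markers matched the labelled tissue in both genotypes. Hoxb13, a marker of the hindgut end, measured 384, 290.1 and 359 FPKM in the knockout, against 297, 409 and 329 FPKM in the wildtype libraries, and Car1, a colonocyte carbonic anhydrase, 1269, 1041 and 1752 FPKM in the knockout, against 860, 1206 and 1018 FPKM in the wildtype libraries. Of the small intestinal markers, Apoa4 was at 0 in all 6 libraries and Sis and Lct stayed under 0.2 FPKM. Rbp2 and Fabp6, the highest of them, averaged 79.6 and 11.7 FPKM in the knockout, against 65.4 and 13.8 FPKM in the wildtype. Median log2 differences were 0.12 over 16 tested distal colon rows, 0.25 over 5 small intestinal rows, 0.21 over 17 goblet cell rows and 0.13 over 21 surface colonocyte rows, of which 0 passed limma with Benjamini-Hochberg adjustment. Unadjusted p-values under 0.05 were found for 2, 1, 3 and 5 of them in that order. Tff3, a goblet cell trefoil peptide, averaged 2020.0 ± 421 FPKM in the knockout and 1715 ± 202 FPKM in the wildtype (SD, n = 3 each). Saa1, whose row also names Saa3, averaged 1507 ± 328 FPKM in the knockout and 735 ± 149 FPKM in the wildtype (SD, n = 3 each). In the Saa1 row every knockout library lay above every wildtype library, as in 9.30% of all tested genes. All 26 skin rows and all 15 muscle rows had a lower mean log2(FPKM + 1) in the knockout, with medians of -1.21 and -2.44, 0 passing and 1 and 2 with an unadjusted p under 0.05. By mean over all 6 libraries Krtdap and Lgals7 led the skin rows, averaging 163 and 135 FPKM in the knockout, against 269 and 225 FPKM in the wildtype. Perp was higher than both in the knockout, at 170 FPKM, against 187 FPKM in the wildtype. In knockout library 1, Perp (155 FPKM) and Sfn (98.2 FPKM) made up much of the skin sum of 368 FPKM. Acta1 and Tnnc2 led the muscle rows, averaging 275 and 293 FPKM in the knockout, against 1060 and 930 FPKM in the wildtype.

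Likeness of pattern was measured as the root mean square difference of log2(FPKM + 1) over the 6 libraries, each gene centred on its own mean, among 13442 other named rows of at least 1 FPKM. The rows nearest to Lypd8 were Snord4a, Mir1905 and Mir3058, all small RNA genes, at distances of 2.72, 3.46 and 4.26. Rassf5, Arhgdib and Slc46a3 were nearest to Lyz1, each at a distance of 0.07. Arhgdib, for example, measured 15.1, 15.1 and 12.8 FPKM in the knockout, against 22.0, 19.2 and 20.0 FPKM in the wildtype libraries. Slc5a9, Vsig2 and Alpk1 were nearest to Dmbt1, each at a distance of 0.05. The measure grows with the size of a difference, on which Lypd8 was selected, so nothing is read from the larger distances of Lypd8.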

How the data were processed

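The deposited table holds FPKM per gene for 6 libraries and as group values, which the authors made with Tophat2, Bowtie2, Cufflinks and Cuffdiff 2, per the labels' design text. Per the submitters' processing notes, mm10 was the build. The design text states an average of 50M paired-end reads of 50 bp. The sources used here name no releases, annotation or library scaling. The p-value columns are the authors' Cuffdiff 2 output, and their deposited log2 fold change was handled as a score, because it holds placeholders.

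Named rows with a mean of at least 0.5 FPKM, 14564 in all, were tested as log2(FPKM + 1), knockout minus wildtype, in limma 3.58.1 (R 4.3.3) with intensity trend, robust moderation and no covariate. Benjamini-Hochberg adjusted p under 0.05 made a call. Fold changes on this scale understate those of low genes. Rows without a gene name, 6.13% of the table and 17.7% of summed FPKM, were left out. P-values rest on 3 mice per genotype. The replicate numbers were not used as pairs in the main fit. Deviations from the group means correlated at -0.375, -0.337 and 0.209 between same-numbered libraries. These deviations also carry the skin and muscle differences, so they cannot show whether same-numbered libraries were handled together.

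Members and 11 gene lists were chosen with earlier results of these data known. Named were all members, each list's called genes or else its 2 most abundant tested rows, the 3 rows nearest in pattern to each member of at least 1 FPKM, and rows listed at 0 in 1 genotype; any other name was picked once its values were seen. List genes were matched by symbol or RefSeq synonym, and some match more than 1 row. Starts are from RefSeq, GRCm38.p6; windows of 50 bases were compared over GENCODE M21 transcripts. Protein identity, planned, was replaced by these windows. Files were read with Python 3.11.15, pandas 2.3.3 and biopython 1.88.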

Additional observations from a re-analysis of the deposited data

How the results depend on the processing

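Lyz1 stayed lower under all 13 alternatives, between -0.58 and -0.42 on the log2 scale, but was not called in the main fit. With a pseudocount of 0.1 the Itln1 difference was -0.45. The Dmbt1 difference was -0.10 without the 3 libraries that stand apart in skin and muscle genes (knockout 1, wildtype 1 and 3), a fit with a lone wildtype library assumed to vary like the others. Leaving out single libraries gave ranges of -0.29 to -0.10 for Itln1, 0.15 to 0.39 for Dmbt1 and 0.01 to 0.38 for Pla2g2a. Of all tested genes 42 were called, and 24 with the replicate block, 20 without small RNA genes and rows of several genes, 111 without the 3 libraries and 26 with the skin covariate. Leaving out single libraries gave 21 (knockout 3), 22 (wildtype 3), 27 (wildtype 1) and up to 70 (wildtype 2) calls. Only 2 of 6 libraries correlated best with the library of their own number. List genes called numbered 0, against 0 to 2 without single libraries (Nlrp6 and Capn9 without wildtype 2, Slc20a1 without knockout 2) and 2 without the 3 libraries (Il22ra2 and Myh4). With a minimum of 1 FPKM, 5 rows were listed at 0 in 1 genotype. Where the cause of a change is not given by fewer genes or libraries, it was not tested. The depth behind values under 1 FPKM is unknown, and no difference is read from them.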
